A study of Mus musculus with 12 samples.

Results

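The effect of dominant-negative AMPK on ribosome enrichment was measured in the ventromedial nucleus (VMN) of the mouse hypothalamus. For every gene, the pull-down ratio was the log2 ratio of its level in ribosome-bound RNA (the output) to its level in total tissue RNA (the input) of the same pool of animals, and the quantity described here is the DN ratio minus the CTRL ratio. It was taken over all 12 of the 12 libraries, which are an input and an output from each of 6 pools, and over 15011 genes with enough counts to be tested. In the DN group, 3 pools of 6 animals each had received in the VMN an AAV for dominant-negative AMPK and an AAV for a ribosomal protein L10 fused to GFP. In the CTRL group, 3 other pools of 6 animals had received the GFP-L10 virus, and their characteristics state that they lacked the AMPK mutant. The treatment text of the CTRL samples nevertheless names the mutant virus too, and the characteristics were followed. If CTRL animals received a single virus, the mutant protein and the additional viral load cannot be told apart. All animals ate regular chow and were fasted overnight before dissection. Their strain, age and sex, and the promoter or Cre driver that restricts the tag to SF1 cells, were not given in the sources used here.

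In translating ribosome affinity purification (TRAP), tagged ribosomes are pulled out of a tissue lysate with an antibody to GFP, so that RNA held by the ribosomes of the tagged cells can be set against the RNA of the whole tissue. The VMN is marked by neurons that make the transcription factor SF1 (encoded by Nr5a1), most of which release glutamate and take part in the control of energy expenditure and blood glucose. AMPK is a kinase of a catalytic alpha, a beta and a gamma subunit that is switched on when cellular energy falls. Among its known effects are inhibition of mTOR complex 1 and activation of the kinase that inhibits elongation factor 2, both of which lower protein synthesis. The comparison asks whether blocking AMPK changes which mRNAs the tagged ribosomes hold.

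Libraries held between 34.6 and 55.5 M gene counts. The share of mitochondrial chromosome genes was 74.9% to 79.7% in inputs and 17.9% to 26.1% in outputs, which left 8.54 to 11.3 M nuclear counts per input and 26.2 to 32.1 M per output. Both libraries of CTRL pool 3 stood apart in interferon and antigen presentation genes. The summed level of that list was 3113 normalized CPM (counts scaled to library size) in its input, against 240 to 1155 in the other inputs, and 1740 in its output, against 118 to 623. The microglia list summed to 446 normalized CPM in the CTRL pool 3 input, against 95.7 to 211 in the others. Pools are separate sets of animals, and in such tissue fewer cells of a type and less RNA per cell cannot be told apart.

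The targeted kinase was counted first. Prkaa1, a catalytic alpha subunit (chromosome 15, 5143861 to 5181899, GRCm38), was at 37.8, 42.1 and 39.9 normalized CPM in CTRL inputs and at 48, 85.9 and 26 in DN inputs. Its outputs were 31.9, 33 and 39 in CTRL and 29.4, 21.1 and 30.2 in DN. The groups overlapped in inputs, all 3 DN outputs lay below all 3 CTRL outputs, and the pull-down ratios overlapped. The ratio differed by -0.62 ± 0.52 (log2 difference ± SE, unadjusted p = 0.248 and adjusted p = 1 by edgeR's quasi-likelihood test). Prkaa2, the other alpha subunit (chromosome 4, 105029874 to 105109890), was at 74.1, 81.6 and 55.1 in CTRL inputs and at 36.7, 56.6 and 58.4 in DN inputs. Its outputs were 90.3, 71.4 and 95 in CTRL and 114, 82.7 and 77.9 in DN, and the ratio differed by 0.57 ± 0.38 (unadjusted p = 0.158, edgeR). Neither alpha subunit was higher in all DN libraries of a fraction. Whether the viral transcript can align to these genes is not known, and the counts do not measure kinase activity. Of the other subunits, Prkag2 had pull-down ratios of -0.51, -0.25 and -0.83 in CTRL and of 0.95, 0.93 and 2.41 in DN. All 3 DN ratios lay above all 3 CTRL ratios, with a difference of 2.30 ± 0.95 and a mean level of only 7.08 normalized CPM. Prkab2 differed by -0.04 ± 0.71 and Prkab1 by 0.34 ± 1.90, and Prkag1 averaged 0.909 normalized CPM.

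The pull-down itself marked VMN neurons in both groups. Over 36 measured VMN neuron genes, the median pull-down ratio was 0.95 in CTRL and 0.99 in DN, while astrocyte genes had -1.89 and -2.16 and oligodendrocyte genes -1.94 and -2.15. Fezf1, a VMN transcription factor, was at 13.5, 17.9 and 20.4 normalized CPM in CTRL inputs and at 158, 175 and 168 in their outputs. In DN it was at 13.1, 33.9 and 23.3 in inputs and at 267, 229 and 203 in outputs. Every pool thus had several times more Fezf1 in its output than in its input, and the ratios overlapped between groups (difference 0.11 ± 0.37). Slc17a6, the vesicular glutamate transporter of these neurons, had ratios of 1.35, 0.92 and 1.37 in CTRL and 1.51, 1.29 and 1.51 in DN, also overlapping. The VMN list as a whole had 17 genes above 0 and 19 below in the difference between DN and CTRL, with a median of -0.01 beside 0.01 over all genes tested. In both groups the median ratios of GABA, arcuate and lateral hypothalamic neuron genes and of microglia and endothelium genes were below 0. The summed level of the arcuate and dorsomedial genes nevertheless had ratios above 0 in every pool (0.06 to 0.76).

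Nr5a1, which defines the tagged cells, separated the groups in the inputs. It was at 1.95, 2.97 and 1.29 normalized CPM in CTRL inputs and at 6.5, 6.88 and 4.72 in DN inputs, so that every DN input lay above every CTRL input. Its outputs were 36.2, 19.2 and 12.5 in CTRL and 10.9, 31.1 and 25.1 in DN, and these overlapped. Its pull-down ratios of 3.66, 2.35 and 2.56 in CTRL and 0.67, 2.03 and 2.19 in DN did not overlap, with a difference of -1.60 ± 0.75 (unadjusted p = 0.0505 and adjusted p = 1, edgeR). The input values rest on 29 to 182 counts per library. Sox14 went the other way, by 3.19 ± 1.49 at a mean of 2.78 normalized CPM.

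**Figure D1:**
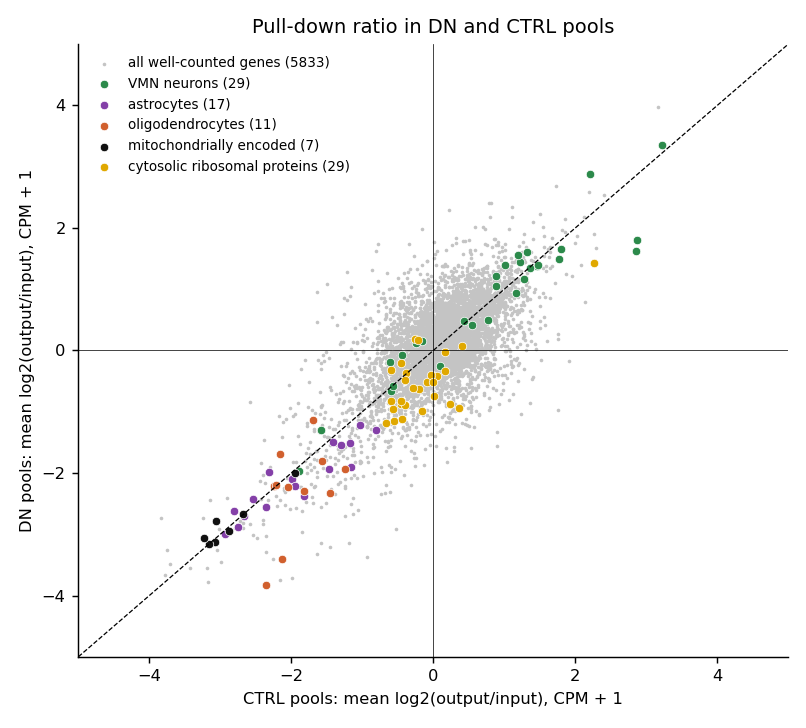
Mean pull-down ratio of each of 5833 well-counted genes in CTRL pools (x axis) and DN pools (y axis), in log2 of normalized CPM + 1; each point is a gene, colours mark 5 gene lists and the dashed line marks equal ratios. VMN neuron genes sit at the upper right and glial and mitochondrially encoded genes at the lower left in both groups, and most ribosomal protein genes sit below the line.

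Which genes are pulled down was largely shared by the groups. Among the 5833 well-counted genes (a mean of at least 10 normalized CPM over the 12 libraries), 280 had a mean CTRL ratio of at least 1, and 252 of them (90%) were also above 0 in DN, with medians of 1.20 and 0.96. Of 315 genes at -1 or lower in CTRL, 294 (93.3%) were below 0 in DN, with medians of -1.47 and -1.55. Over all 5833 well-counted genes, 72.1% had mean ratios on the same side of 0 in both groups. The mean ratios of the groups correlated across these genes at r = 0.692, as the scatter of mean pull-down ratios shows. Between single pools the correlation was lower, at 0.443 to 0.505 within CTRL, 0.369 to 0.430 within DN and 0.391 to 0.469 between the groups. These are descriptions across genes that share libraries, depth and amplification, and genes are not replicates. Ratios spread more widely in DN pools 1 and 2 (SD over genes of 0.998 and 1.05) than in the other 4 pools (0.792 to 0.852).

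No single gene passed the test of the difference. Of 15011 genes, 0 (0%) had an adjusted p under 0.05 in edgeR's quasi-likelihood test with the pool as a block, and the smallest adjusted p was 0.896. At an unadjusted p under 0.05 there were 589 genes (3.92%), 285 with a higher and 304 with a lower ratio in DN. Among well-counted genes there were 299 (5.13%). The same genes were also sorted without a model, by whether all 3 DN pool ratios lay above or below all 3 CTRL ratios. Of all genes tested, 758 (5.05%) were apart and higher and 736 (4.9%) apart and lower, 9.95% in all. Of the well-counted genes, 310 (5.31%) were apart and higher and 305 (5.23%) apart and lower, 10.5% in all. For a single gene, an exact two-sided permutation test over 3 against 3 pools cannot go below p = 0.1, which is its value for every gene that is apart. DESeq2 called 58 of 14428 genes (0.402%), 22 higher and 36 lower, at a median of 4.23 normalized CPM. Only 10 of the 58 were well counted. limma-voom called 0, with 820 at an unadjusted p under 0.05, and limma on the pool ratios called 0, with 734.

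How small a difference could be seen depended on the level. The median SE was 0.69 for genes at 10 to 30 normalized CPM, 0.40 at 30 to 100, 0.27 at 100 to 300 and 0.20 at 300 or more. The matching 95% intervals reached a median of 1.47, 0.85, 0.58 and 0.42 to either side. None of the 755 genes at 100 to 300 normalized CPM and none of the 193 at 300 or more differed by over 1 on the log2 scale. At 30 to 100 normalized CPM, 71 of 2024 genes (3.51%) did.

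The genes named next were the 12 well-counted protein-coding genes per direction with the smallest unadjusted p among those whose pool ratios did not overlap. Non-overlap and a small p are therefore how they were picked, and 5.31% and 5.23% of well-counted genes meet the former by direction. All 24 had an adjusted p of 1 in edgeR, and 10 of them were called by DESeq2.

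**Figure D2:**
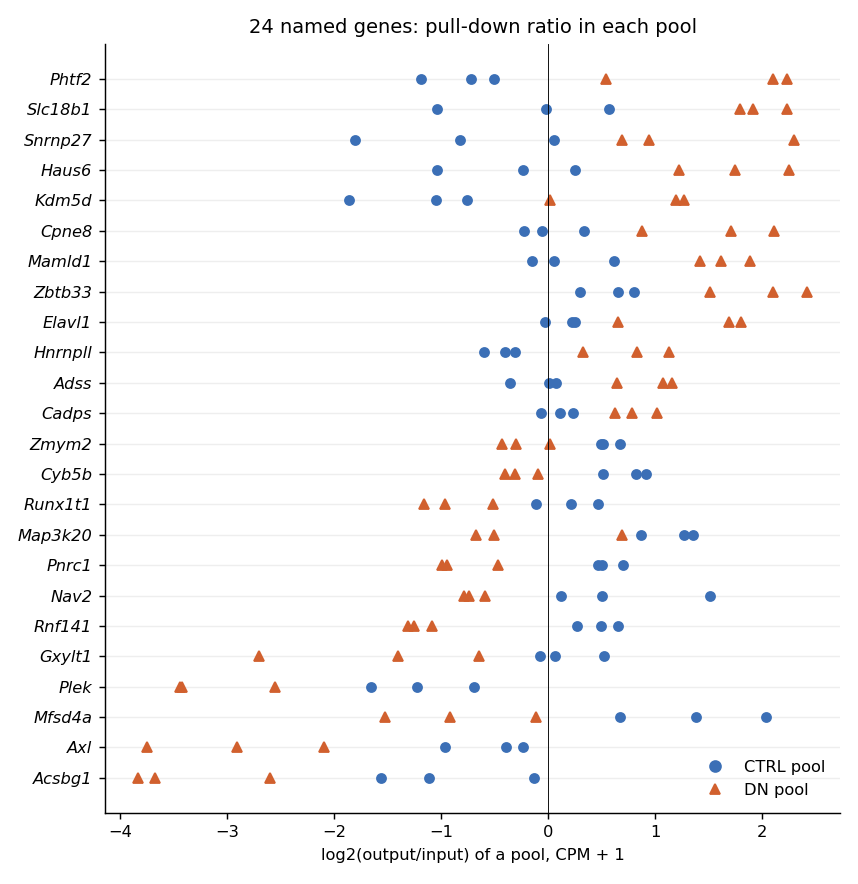
Pull-down ratio (x axis, log2 of output over input, normalized CPM + 1) in each of 3 CTRL pools (circles) and 3 DN pools (triangles) for the 24 named genes (y axis). Circles and triangles do not overlap in any row, as the choice of genes requires, and by the mean of the DN pools Acsbg1, Plek and Axl lie furthest to the left.

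Among genes with a lower ratio in DN, Rnf141 had the smallest p. This RING-finger protein gene (chromosome 7, 110800432 to 110844457) was at 47.1, 59.5 and 40.9 normalized CPM in CTRL inputs and at 62.2, 34.3 and 45.7 in DN inputs, which overlapped. Its outputs were 66.8, 71.7 and 64.7 in CTRL and 28.8, 13.8 and 17.8 in DN. All DN outputs thus lay well under all CTRL outputs, and the ratio went from 0.49, 0.27 and 0.65 in CTRL to -1.09, -1.25 and -1.31 in DN, a difference of -1.74 ± 0.36 (unadjusted p = 0.000202 and adjusted p = 1, edgeR; DESeq2 adjusted p = 0.00109). Over the alternatives its difference ran from -1.84 to -1.65 and its adjusted p from 0.00109 to 1. The annotated span of Rnf141 overlaps that of Ampd3, and since the strand setting of the counting is not given, reads of the pair may not be fully separable.

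Several of the other lower genes are known from glia or blood-derived cells. Axl, a receptor tyrosine kinase of microglia and astrocytes, was at 16.8, 13.8 and 42.6 normalized CPM in CTRL inputs and at 45, 21.5 and 21.4 in DN inputs. Its outputs were 12.6, 11.6 and 21.3 in CTRL and 2.43, 2 and 4.25 in DN, and the ratio differed by -2.77 ± 0.65. Acsbg1, an acyl-CoA synthetase rich in astrocytes, had outputs of 7.46, 5.96 and 13.1 in CTRL and 0.722, 5.44 and 0.289 in DN. Its inputs overlapped, and its ratio differed by -3.48 ± 0.88, the largest of the 12. Plek, the pleckstrin of blood cells and microglia, had outputs of 4.32, 9.67 and 28.5 in CTRL and 1.56, 3.16 and 7.82 in DN and differed by -2.23 ± 0.58. For Axl and Plek the CTRL pool with the most signal was pool 3, and without it the differences were -2.99 and -1.93. Of the 14 measured genes of the microglia list, 4 were above 0 and 10 below, with a median of -0.61, 1 was apart and higher and 0 apart and lower (7.14%). The list's summed pull-down ratio overlapped between groups (-3.14 to -1.50 in CTRL and -2.85 to -2.34 in DN). Whether other cell types took part in these 3 genes was not tested.

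The other lower genes included better-counted ones. Zmym2, a zinc-finger protein, was at 124, 135 and 126 in CTRL inputs and at 189, 222 and 158 in DN inputs, and at 177, 191 and 202 in CTRL outputs and 154, 165 and 159 in DN outputs. Input and output therefore moved in opposite directions, each without overlap, for a difference of -0.80 ± 0.24. Runx1t1, a transcriptional corepressor, likewise had higher inputs (59.4, 65.4 and 75.1 in CTRL and 76.8, 112 and 134 in DN) and lower outputs (82.5, 76 and 69.5 against 53.5, 57 and 59.3), with -1.08 ± 0.31. Nav2, the neuron navigator that guides axon growth, differed by -1.44 ± 0.40, with outputs of 58.3, 66.5 and 74.7 in CTRL and 35.2, 32.1 and 53.7 in DN. Pnrc1, a nuclear receptor coactivator, had very even DN outputs of 29.2, 29.9 and 27.3, against 40.3, 36.9 and 74.9 in CTRL, and differed by -1.39 ± 0.38. Cyb5b, a cytochrome b5 of the outer mitochondrial membrane, differed by -1.03 ± 0.31. Map3k20, the stress kinase ZAK that senses stalled ribosomes, had ratios of 0.87, 1.27 and 1.35 in CTRL and 0.69, -0.68 and -0.50 in DN, so that DN pool 1 lay close to CTRL (difference -1.36 ± 0.41). Mfsd4a differed by -2.40 ± 0.65 and Gxylt1, a xylosyltransferase that modifies Notch, by -1.87 ± 0.58.

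Among genes with a higher ratio in DN, Mamld1 had the smallest p. This mastermind-like gene (chromosome X, 71050256 to 71156056), known for its part in male sexual development, was at 39.3, 40.5 and 44.3 normalized CPM in CTRL inputs and at 27.7, 21.7 and 34.4 in DN inputs. Its outputs were 40.8, 62.5 and 39.9 in CTRL and 87.2, 83.2 and 93.7 in DN. Inputs and outputs each separated the groups, in opposite directions, and the ratio differed by 1.50 ± 0.36 (unadjusted p = 0.000825 and adjusted p = 1, edgeR; DESeq2 adjusted p = 0.0171). The alternatives gave 1.34 to 1.73, with adjusted p from 0.0171 to 1.

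Genes of RNA handling and vesicle release were among the others. Elavl1, which encodes the mRNA-stabilising protein HuR, had outputs of 62.8, 45.9 and 43.4 in CTRL and 108, 86.5 and 73.3 in DN, and its ratio differed by 1.26 ± 0.38. Hnrnpll, a splicing regulator, had ratios of -0.31, -0.60 and -0.40 in CTRL and 1.13, 0.83 and 0.33 in DN (difference 1.23 ± 0.38). Snrnp27, a protein of the spliceosome's tri-snRNP, had inputs of 31.2, 26 and 25.2 in CTRL and 18.6, 7.57 and 7.44 in DN, with overlapping outputs (difference 2.30 ± 0.67). These RNA-binding proteins came up by the rule for small p, and no enrichment of such genes was tested. Cadps, a priming factor for dense-core vesicles, was the best counted of the 12, with outputs of 220, 194 and 183 in CTRL and 298, 333 and 270 in DN. Its inputs overlapped and its ratio differed by 0.72 ± 0.22. Slc18b1, a vesicular polyamine transporter, differed by 2.45 ± 0.66, with DN outputs as uneven as 74.8, 9.58 and 25.9.

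Adss, the enzyme that commits inosine monophosphate to AMP synthesis, was at 86.7, 65.3 and 93.9 normalized CPM in CTRL inputs and at 55.4, 43.5 and 62.7 in DN inputs. Its outputs overlapped (67.7, 68.9 and 94.6 in CTRL and 86.9, 98.3 and 133 in DN), and its ratio differed by 1.06 ± 0.30. Zbtb33, the methyl-CpG binding protein Kaiso, had ratios of 0.30, 0.81 and 0.66 in CTRL and 2.42, 2.11 and 1.51 in DN. Haus6, of the augmin complex that branches microtubules, differed by 2.24 ± 0.62 and the copine Cpne8 by 1.62 ± 0.50. Phtf2 differed by 2.85 ± 0.78 at a mean of only 12.7 normalized CPM. Its outputs overlapped, at 11.6, 7.99 and 5.49 in CTRL and 50.3, 7.48 and 8.07 in DN. The DN pool 1 output thus stood far above its other libraries, and the DN pool 2 input was only 0.972. Kdm5d, a histone demethylase of the Y chromosome, differed by 2.21 ± 0.68.

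These 24 genes shared a form. In all 12 higher genes and in 11 of the 12 lower genes, the DN-CTRL difference had one sign in inputs and the other in outputs, so that the change of ratio summed both. Ranking genes by a difference of differences selects for that form. Of the 24, 14 have an annotated span that overlaps another gene, 5 of them a protein-coding one (Ampd3 for Rnf141, Elk4 for Mfsd4a, Cnrip1 for Plek, Ccl25 for Elavl1 and Tmem255a for Zbtb33), and their counts are uncertain to that extent.

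**Figure D3:**
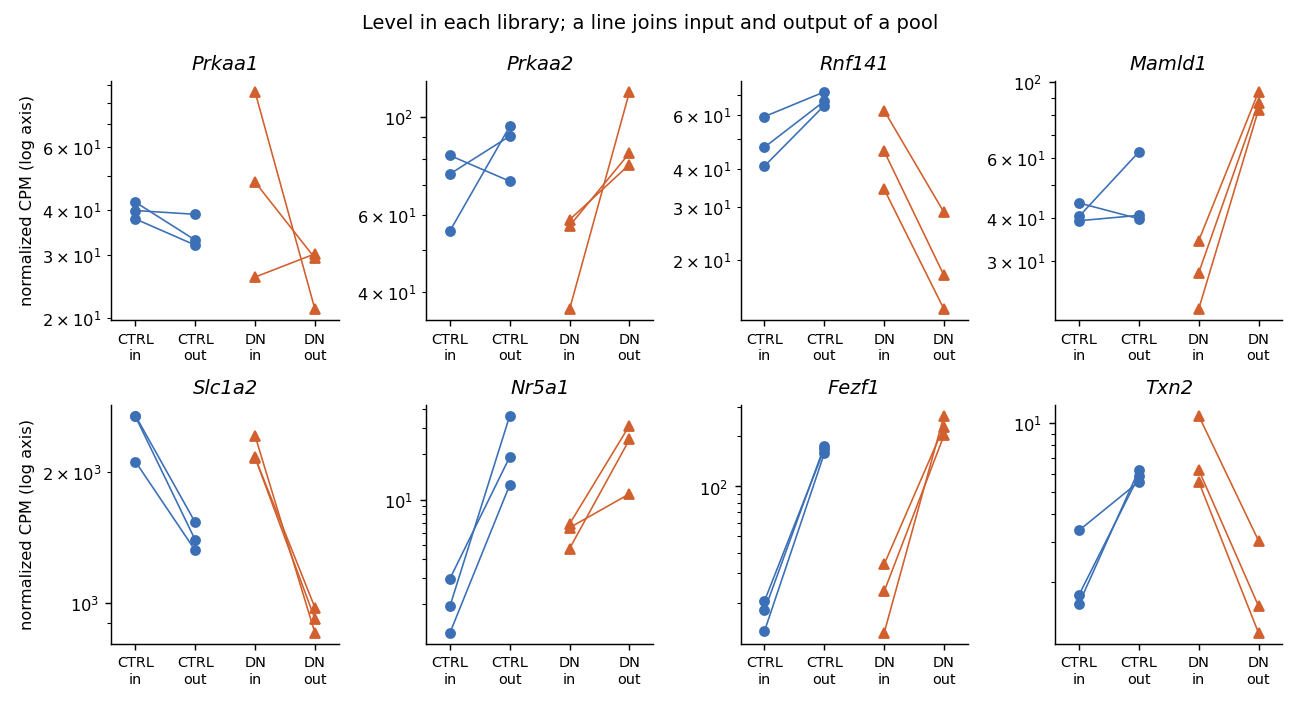
Level of 8 genes in each library (y axis, normalized CPM, log scale), with circles for CTRL, triangles for DN and a line joining the input (in) and output (out) of a pool. Lines of Rnf141 slope up in CTRL and down in all 3 DN pools, those of Mamld1 slope up steeply in all 3 DN pools, and those of Fezf1 slope up in all 6 pools.

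Genes were next described by 37 lists of cell type markers and cell functions, with 831 of 866 genes measured. None of these genes was called by edgeR. List medians of the difference ran from -0.68 to 0.42, beside 0.01 over all genes tested. In 34 lists the medians of the pools overlapped between groups. The pool medians were all lower in DN for astrocytes and all higher for potassium channels and for endothelium and pericytes, of which only 1 of 14 genes was well counted. As ratios of summed levels, only astrocytes, cytosolic ribosomal proteins, translation factors, and mitochondrial biogenesis and dynamics separated the groups. Summed ratios of all other lists overlapped, those of potassium channels and of endothelium and pericytes included. For scale, 9.95% of single genes tested had non-overlapping pool ratios.

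**Figure D4:**
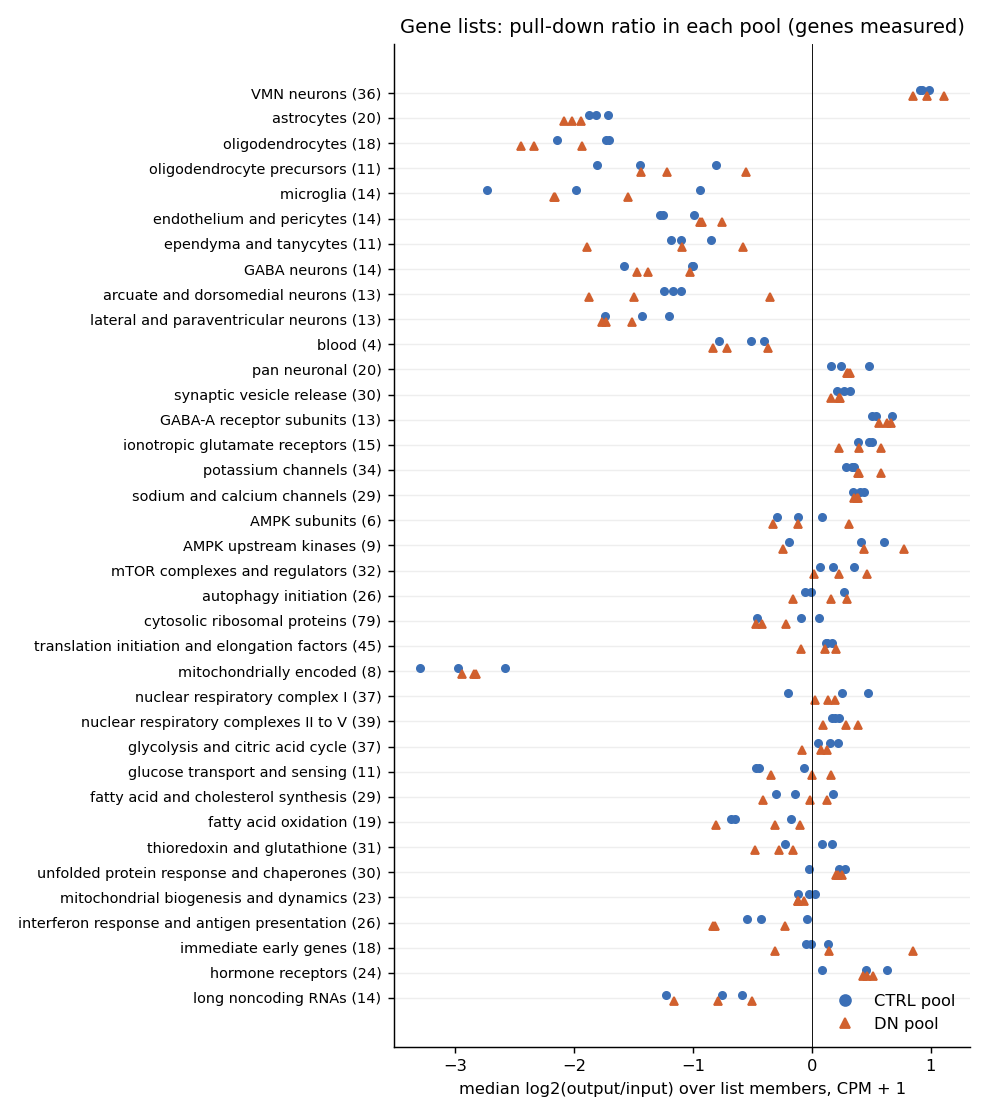
Median pull-down ratio over the measured members of each of 37 gene lists (y axis, number of genes in brackets) in each pool (x axis, log2 of output over input, normalized CPM + 1), with circles for CTRL and triangles for DN. Groups separate in 3 lists (astrocytes, endothelium and pericytes, potassium channels), and the lists of glia, vessels, blood and neurons outside the VMN lie left of 0 in both groups.

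Astrocyte transcripts were depleted from the pull-down in both groups, with lower medians in all 3 DN pools than in any CTRL pool. Of 20 astrocyte genes, 16 had a lower ratio in DN (median -0.28), 4 were apart and lower and 0 apart and higher, 20% beside 9.95% of all genes tested. Other lists had similar shares. They were 23.1% for lateral and paraventricular neurons (3 lower, 0 higher) and 20.8% for hormone receptors (4 lower, 1 higher). For interferon and antigen presentation genes the share was 19.2% (4 lower, 1 higher). Slc1a2, the main glutamate transporter of astrocytes (chromosome 2, 102658659 to 102790784), was the best-counted astrocyte gene. Its inputs were 2680, 2692 and 2110 normalized CPM in CTRL and 2157, 2420 and 2154 in DN, which overlapped. Its outputs were 1393, 1529 and 1319 in CTRL and 918, 852 and 975 in DN, all lower. The ratio was -0.94, -0.82 and -0.68 in CTRL and -1.23, -1.50 and -1.14 in DN, a difference of -0.48 ± 0.15 (unadjusted p = 0.00618 and adjusted p = 1, edgeR; range over the alternatives -0.56 to -0.37). Glul, the glutamine synthetase that works beside this transporter, had ratios of -1.52, -0.93 and -1.01 in CTRL and -2.02, -1.70 and -1.99 in DN, a difference of -0.75 ± 0.24. Aqp4, the water channel of astrocyte endfeet, differed by -0.35 ± 0.24 and Aldoc, a glycolytic aldolase, by -0.24 ± 0.29, both apart and lower. Slc1a3, the second glutamate transporter, overlapped (0.11 ± 0.33), as did S100b (0.49 ± 0.71).

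The summed level of the 20 astrocyte genes was 4562 to 5438 normalized CPM in CTRL inputs and 4859 to 5069 in DN inputs, overlapping. In outputs it was 2006 to 2327 in CTRL and 1523 to 1588 in DN, with no overlap. As pull-down ratios these sums were -1.34, -1.22 and -1.19 in CTRL and -1.63, -1.74 and -1.63 in DN, and Slc1a2 makes up much of them. The sum over all genes tested was lower in every DN pool too, at -1.53, -1.50 and -1.54 in CTRL and -1.67, -1.58 and -1.64 in DN. That sum is mostly mitochondrial chromosome RNA in the inputs (74.9% to 79.7% of counts). The median ratio over all genes tested overlapped between groups, at -0.0148 to -0.0021 in CTRL and -0.0129 to 0 in DN. Oligodendrocyte genes had a median difference of -0.36 but overlapping pool medians, with 7 of 18 above 0 and 11 below and 3 apart and lower (16.7%). Mobp, a myelin protein gene, was at -1.60, -1.55 and -1.21 in CTRL and -2.43, -1.91 and -2.62 in DN (difference -0.89 ± 0.30), and Cldn11, the tight-junction protein of myelin, differed by -2.06 ± 0.71. Summed oligodendrocyte ratios of -2.17 to -1.79 in CTRL and -2.37 to -1.91 in DN overlapped. The part of glial RNA in the differences of other genes was not tested.

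Cytosolic ribosomal protein genes, the protein parts of the ribosome that the tag belongs to, lay lower in DN. Of 79 measured, 53 were below 0 and 26 above, with a median of -0.33. The 29 well-counted ones had 24 below 0 and a median of -0.44, against 0.02 for all well-counted genes. Of the 79, 10 were apart and lower and 1 apart and higher, 13.9% beside 9.95% of all genes tested. Their summed pull-down ratio was -0.03, 0.26 and -0.11 in CTRL and -0.37, -0.43 and -0.23 in DN, with no overlap, whereas the medians over members overlapped, with -0.46 in CTRL pool 3. The sum over all genes tested, mostly mitochondrial chromosome RNA in the inputs, was lower in every DN pool (-1.54 to -1.50 in CTRL and -1.67 to -1.58 in DN). The median ratio over all genes tested overlapped between groups. Rpl32, of the large subunit, was at 28.5, 23.5 and 26 normalized CPM in CTRL inputs and at 39.1, 46.4 and 38.5 in DN inputs. Its outputs were 33.2, 31.2 and 27.4 in CTRL and 21.6, 22.3 and 21.8 in DN. Both fractions separated the groups in opposite directions, and the difference of ratios was -1.15 ± 0.43. Rpl4 had the highest counts, with ratios of -0.16, 0.33 and 0.33 in CTRL and -0.31, -0.46 and -0.22 in DN (difference -0.50 ± 0.22, unadjusted p = 0.0423 and adjusted p = 1, edgeR). Rpl15 was pulled down in every pool but less so in DN, at 2.26, 2.02 and 2.48 against 1.75, 0.65 and 1.89 (difference -0.85 ± 0.36), and its outputs overlapped.

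Ribosomal protein mRNAs are short and have many processed pseudogenes that share their reads, so their counts are uncertain. Of the 29 well-counted genes, 25 belong to the shortest 1438 when all well-counted genes are ordered by longest annotated transcript. The other 1413 of those had a median difference of -0.02, with 744 below 0. Their median length was 2268 bases, against 1260 for the 29 ribosomal protein genes. The sets are thus not matched in length, and an effect of length was not tested. The host genes of the tag's family did not stand out: Rpl10 averaged only a few normalized CPM (0.40 ± 1.77), and Rpl10a had ratios of 1.87, 1.59 and 1.09 in CTRL and 2.02, 0.92 and 0.67 in DN. The 45 translation initiation and elongation factors had a median of 0.00, with 23 above 0 and 22 below. Their summed ratio was slightly higher in every DN pool, at 0.03, 0.01 and 0.02 in CTRL and 0.06, 0.05 and 0.15 in DN.

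**Figure D5:**
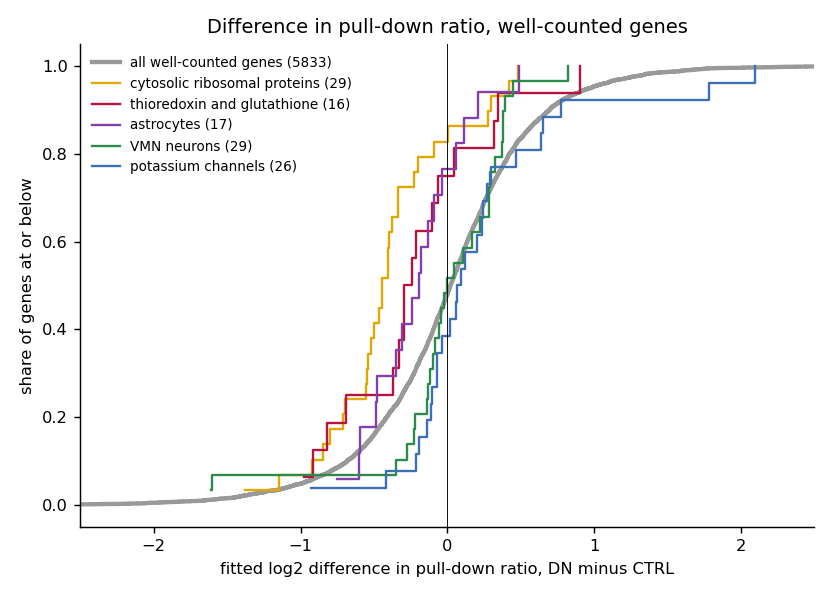
Cumulative share of well-counted genes (y axis) at or below a given DN minus CTRL difference in pull-down ratio (x axis, fitted log2), for all 5833 genes (grey) and 5 lists, with the x axis limited so that a few extreme genes of the grey curve lie outside. The curve for 29 ribosomal protein genes runs left of the grey curve, VMN neuron genes follow it and potassium channel genes lie slightly to its right.

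Ribosomal protein mRNAs are known for a start called a TOP motif, a C followed by pyrimidines, through which mTOR complex 1 controls their loading on ribosomes. The starts were therefore read from RefSeq windows (GRCm38.p6), for a C at the start base followed by at least 4 bases that are C or T, on the gene's own strand only. Of 59 ribosomal protein genes with a window, 13 (22.03%) had such a start, against 2.99% of the genes tested and 2.51% of all 32851 windows. The median difference was -0.47 for those 13, with 9 below 0, and -0.30 for the others. Well-counted genes with such a start that encode no ribosomal protein had a median of 0.07, beside 0.03 without it. Starts in RefSeq may be a few bases off, so a missing match says only that these letters do not stand there. Rpl10a, also named above, has windows too, whose starts lack the motif, and is not shown. Rpl15 and Rpl4 are shown with 15 bases before and 15 from the start base, with the C at the start and its run of pyrimidines in capitals.
Rpl15 (chr14:18270972-18271001, minus strand): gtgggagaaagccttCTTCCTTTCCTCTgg
Rpl4 (chr9:64173372-64173401, plus strand): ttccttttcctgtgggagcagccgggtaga
Rpl15 has the motif at its RefSeq start and Rpl4, with a difference in the same direction, has none at that base. The 15 bases printed before the Rpl4 start do hold a C followed by a run of pyrimidines. Whether Rpl4 transcripts begin there was not tested, so these letters do not show that Rpl4 lacks the motif.

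Of 32 measured mTOR genes, through which AMPK is known to act on translation, 18 had a higher ratio in DN (median 0.09), and of the 19 well-counted ones 14 did. Of the 32, 3 were apart and higher and 2 apart and lower, 15.6% beside 9.95% of all genes tested. Rps6kb1, the S6 kinase that mTOR complex 1 phosphorylates, had outputs of 34.5, 24.6 and 46.5 normalized CPM in CTRL and 49.3, 76.3 and 54.2 in DN. Its ratios were -0.15, -0.54 and -0.10 in CTRL and 0.45, 1.01 and 1.17 in DN, all higher, with a difference of 1.17 ± 0.39 (unadjusted p = 0.00915 and adjusted p = 1, edgeR). Deptor, an inhibitor of mTOR, had inputs of 101, 71.4 and 75.3 in CTRL and 47.1, 52.7 and 55.5 in DN with overlapping outputs, and differed by 0.74 ± 0.29. Rheb, the GTPase that activates mTOR complex 1, differed by -0.64 ± 0.36 and was apart and lower. The kinases and partners upstream of AMPK had 5 of 9 genes above 0 and none apart. Autophagy initiation genes had 15 of 26 above 0 with 1 apart (3.85%), below the share over all genes tested.

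Genes that act on energy supply showed little common direction. The 8 measured mitochondrially encoded genes were depleted alike from both pull-downs, with median ratios of -2.97 in CTRL and -2.87 in DN and a median difference of -0.02. mt-Nd1 differed by -0.05 ± 0.13 and mt-Cytb by 0.17 ± 0.14, which are among the narrowest errors here. Nuclear genes of complex I had 20 of 37 above 0 (median 0.13), those of complexes II to V 22 of 39 (0.07) and those of glycolysis and the citric acid cycle 14 of 37 (-0.10). Fatty acid oxidation genes had 8 of 19 above 0, and synthesis genes of fatty acids and cholesterol 16 of 29. Mitochondrial biogenesis and dynamics genes had 10 of 23 above 0 and 13 below (median -0.14). In that list 2 were apart and higher and 1 apart and lower, 13.0% beside 9.95% of all genes tested. Its summed ratio was higher in every DN pool, at 0.06, -0.02 and -0.03 in CTRL and 0.47, 0.15 and 0.14 in DN. Dnm1l, the GTPase of mitochondrial fission, was 1 of the higher members, with ratios of 0.38, -0.03 and -0.13 in CTRL and 0.81, 0.47 and 0.48 in DN (difference 0.52 ± 0.23).

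Thioredoxin and glutathione genes, which remove peroxides, lay mostly lower in DN: 23 of 31 were below 0, with a median of -0.31, and 3 were apart and lower and 0 apart and higher. These are 9.68% of the list, close to the 9.95% of all genes tested. The pool medians overlapped, at 0.17, 0.09 and -0.22 in CTRL and -0.27, -0.48 and -0.16 in DN. Txn2, the mitochondrial thioredoxin, was at 3.37, 1.75 and 1.61 normalized CPM in CTRL inputs and at 5.53, 10.8 and 6.24 in DN inputs. Its outputs were 5.52, 5.87 and 6.22 in CTRL and 1.19, 3.04 and 1.57 in DN. Inputs and outputs did not overlap and moved in opposite directions, and the ratio differed by -3.48 ± 1.13 (unadjusted p = 0.00774 and adjusted p = 1, edgeR; DESeq2 adjusted p = 0.0512). It was included because the published study of these samples is remembered to name it, so neither Txn2 nor its list is independent evidence. Prdx4 and Prdx3, peroxiredoxins of the endoplasmic reticulum and of mitochondria, differed by -2.83 ± 1.15 and -1.35 ± 0.81 and were also apart. Slc7a11, the cystine importer for glutathione synthesis and better counted, differed by -0.97 ± 0.44 with overlapping ratios.

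Neuronal function lists had medians close to 0. Potassium channels had 20 of 34 genes above 0 (median 0.08), 5 apart and higher and 0 apart and lower, 14.7% beside 9.95% of all genes tested. Their summed ratios overlapped, at 0.73 to 0.89 in CTRL and 0.83 to 0.89 in DN. Kcna1, a voltage-gated channel, had ratios of -0.14, -0.02 and -1.07 in CTRL and 0.43, 2.22 and 1.17 in DN (difference 1.78 ± 0.61). Kcnh5 had inputs of 8.11, 12.3 and 9.68 normalized CPM in CTRL and 0.964, 1.82 and 5.88 in DN with overlapping outputs, so its difference of 2.09 ± 0.73 came with inputs only. Kcnq3, a well-counted subunit of the M current, differed by -0.19 ± 0.20. Sodium and calcium channels had 19 of 29 above 0, synaptic vesicle genes 15 of 30 and pan neuronal genes 10 of 20. Within vesicle release, Rims1, an active zone protein, differed by -1.29 ± 0.44 with overlapping ratios. GABA-A receptor subunits had 5 of 13 above 0 and 8 below (median -0.02), 2 apart and higher and 0 apart and lower (15.4%). Gabrb1, a subunit pulled down in every pool, had 0.52, 0.78 and 0.70 in CTRL and 0.99, 0.95 and 1.07 in DN (difference 0.34 ± 0.16), and Gabrb2 differed by -0.58 ± 0.37 with overlapping ratios.

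Immediate early genes, a sign of recent neuronal activity, had 12 of 18 above 0 but only 3 well-counted members, and Fos differed by -0.17 ± 2.20. Interferon and antigen presentation genes had 13 of 26 above 0 and a median of -0.23, and without CTRL pool 3 the median was 0.19, so the sign rested on that pool. H2-D1, a class I histocompatibility gene, was at 6.54, 10.5 and 98 normalized CPM in CTRL inputs and at 32.8, 29.8 and 33.7 in DN inputs. Its ratios of -0.65, -1.34 and -1.47 in CTRL and -3.28, -2.26 and -1.98 in DN did not overlap (difference -1.47 ± 0.58, and -1.58 without CTRL pool 3).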

How the data were processed

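The members here are all 12 libraries, and the groups follow the sample titles. Counts of reads per Ensembl gene were deposited by the authors, 1 file per library, as whole numbers with no normalization. The 5 closing entries hold reads without a gene (16.1% to 26.1% of a library) and were left out. The submitters' processing notes name build GRCm38, the aligner STAR 2.4.2a, the counter HTSeq 0.6.1 and cutadapt 1.3. Per the labels' protocols, RNA was linearly amplified. Annotation release and strand setting were not given in the sources used here. Symbols and positions came from GENCODE for 46005 of 46517 identifiers (98.9%). No library copied another.

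The interaction of fraction and virus was fitted to the counts with edgeR 4.0.16 (R 4.3.3; quasi-likelihood, TMM scaling, filterByExpr with a minimum count of 10 and a minimum total of 15), with the pool as a block and 4 residual degrees of freedom, two-sided and Benjamini-Hochberg adjusted over all genes tested at 0.05. Errors are SE of the fitted log2 difference. Levels are CPM on library sizes scaled by TMM factors, so their sum differs between libraries, and pool ratios add a pseudocount of 1. No molecular identifiers were named. The script was tested on simulated data, with known differences put into well-counted genes. At an adjusted p under 0.05 (edgeR), it recovered 5 of 67 genes (7.46%) with a log2 difference of 1. It recovered 28 of 67 (41.8%) with a difference of 2 and 53 of 66 (80.3%) with 3. There were 8 false calls among 13993 unchanged genes.

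The pairing comes from the design text, by which each pool gave its own input and output. Within a pool, deviations from group means correlated across 5833 genes in CTRL (r = 0.182, 0.0491 and 0.223) but hardly in DN (r = 0.0462, -0.0077 and 0.0375).

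Named genes were those past the threshold with a mean of at least 10 CPM. Since fewer than 6 passed, the 12 well-counted protein-coding genes per direction with the smallest unadjusted p among those with non-overlapping pool ratios were named instead, with up to 4 members of smallest p per list and Prkaa1, Prkaa2, Nr5a1, Fezf1, Slc17a6, Rpl10, Rpl10a, Txn2 and Fos. Other list members named were chosen after their values were seen. Members and lists were chosen with earlier results of these data known. The 16 alternatives were no block, DESeq2 1.42.0, voom with sample weights and limma 3.58.1 on pool ratios, 2 scalings, 2 filters, no mitochondrial chromosome, thinned nuclear counts, and each pool left out. A few list members are not reported here.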

Additional observations from a re-analysis of the deposited data

How the results depend on the processing

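The count of 0 genes past the threshold held in 14 of the 16 alternatives, each pool left out included (lowest and highest 0). DESeq2 called 58 genes and testing without a filter called 1, Itga6. The fit without the pool as a block, which drops the pairing of input and output, called 0 genes and had 933 at an unadjusted p under 0.05. It moved the sign of 1 named gene, Ifi44, to 0.12, and changed no other call or direction among the 177 genes named by the rule. Over all 16 alternatives, 22 of 2760 values for these genes changed sign, and 0 of 384 values for the 24 leading genes did. The 24 were picked for non-overlapping pool ratios and a small p. A change of sign was therefore hardly possible for them, and the 0 does not show that they are robust. Thinning nuclear counts put Hbb-bs at 1.76 and limma on pool ratios put Npy at -0.10. With pools left out in turn, the ranges that cross 0 were -0.35 to 0.44 for Fezf1, -2.49 to 1.73 for Fos, -0.12 to 4.005 for Ghrh, -2.47 to 0.18 for Hba-a2, -1.33 to 1.04 for Hbb-bs, -1.79 to 0.0472 for Olig1, -0.46 to 1.26 for Rpl10 and -0.85 to 0.0429 for Rpl10a. They were -1.26 to 16.1 for Vwf, -0.0016 to 0.36 for mt-Cytb, -0.20 to 0.11 for mt-Nd1 and -0.24 to 0.11 for mt-Nd6. The astrocyte median was -0.18 by limma on pool ratios and -0.36 to -0.15 with pools left out, nearest to 0 without CTRL pool 1. The potassium channel median ran from 0.0633 to 0.215 over all alternatives and from 0.0815 to 0.215 with pools left out, highest without DN pool 3. Ribosomal protein genes kept a median between -0.46 and -0.20 and thioredoxin and glutathione genes between -0.38 and -0.18 in every alternative. Of 589 list medians, 66 moved by more than the spread of pools. The cause was not tested for any of these. Depth limits genes under 10 normalized CPM most, where the median SE was 1.55 at 1 to 10 and 3.75 below 1.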

Other observations

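The gene with the smallest p of all lay under the level required for naming and was singled out after its values were seen. Itga6, the integrin alpha 6 that binds laminin on vessels and progenitor cells, was at 13.9, 8.49 and 10.8 normalized CPM in CTRL inputs and at 0.892, 2.67 and 2.64 in DN inputs. Its outputs were 1.50, 0.825 and 1.84 in CTRL and 10.3, 16.7 and 8.23 in DN. It was thus depleted from the pull-down in every CTRL pool and enriched in every DN pool, with a difference of 5.64 ± 1.02 (adjusted p = 0.896 by edgeR's quasi-likelihood test, 0.0445 without the filter on low counts and 4.55e-07 by DESeq2, and up to 1 over the alternatives). The endothelium and pericyte list had 8 of 14 genes above 0.

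Because Kdm5d appeared among the named genes, the other Y chromosome genes were looked up after its values were seen. They did not share a direction. Uty had ratios of 0.06, 0.12 and 0.74 in CTRL and -0.16, -1.14 and -1.34 in DN, a difference of -1.24 ± 0.55, while Ddx3y overlapped (0.51 ± 0.35), as did Eif2s3y (-0.83 ± 0.98).

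The difference was slightly higher in classes of longer transcripts. Its median was -0.03, 0.02, 0.05 and 0.05 in 4 nearly equal classes of well-counted protein-coding genes, from the shortest to the longest. The shares of genes above 0 were 46.9%, 51.9%, 54.1% and 55.2%. An effect of length was not tested.

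Single low-count neuropeptide genes of neighbouring nuclei had wide errors. Hcrt, the orexin gene of the lateral hypothalamus, had 0, 4 and 3 counts in CTRL outputs and 111, 153 and 28 in DN outputs, with overlapping ratios and a difference of 4.63 ± 1.54 (adjusted p = 1, edgeR).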
